A study of Homo sapiens with 24 samples.

Results

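The 9 genes described here encode the enzymes that build phosphatidylethanolamine and phosphatidylcholine from ethanolamine and choline. They were ETNK1, ETNK2, CHKA, CHKB, PCYT1A, PCYT2, CEPT1, SELENOI and PEMT, and they were found by symbol among the 61533 genes of the deposited count table. All 9 were present and all 9 passed the filter on low counts, which kept 23651 genes. The set was drawn up because ETNK2 had been selected on its difference between the SoF and Ctrl lines in the response to 3 h of dexamethasone. That difference is therefore given only as a description, with no test, and so is every other comparison of ETNK2 that uses SoF or Ctrl libraries at 0 h or 3 h. Counts of members in those comparisons cover the 8 others.

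Phosphatidylcholine and phosphatidylethanolamine are the main phospholipids of animal membranes, and the route that makes them from free head groups is known as the Kennedy pathway. A kinase first phosphorylates choline or ethanolamine, a cytidylyl transferase then turns the phosphorylated head group into a CDP-activated form, and a phosphotransferase finally joins it to diacylglycerol. A side branch methylates phosphatidylethanolamine to phosphatidylcholine and is best known from liver, where glucocorticoids also act on lipid metabolism.

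The assay was 4sU-seq, which reads out transcription. Cells take up the nucleoside analogue 4-thiouridine and the RNA that contains it is then captured and sequenced. The cells were U2OS, a human osteosarcoma line, and each line was a stable pool expressing the glucocorticoid receptor (GR) with a C-terminal HaloTag, placed in the genome by PiggyBac transposition behind a CMV promoter, selected with puromycin and sorted by the tag. The wt line carried wild-type GR, SoF carried K492A, a receptor with reduced RNA binding, and Ctrl carried R470A, which has reduced DNA binding and serves as the control for the weaker DNA binding of SoF. Each line was kept in 0.01% ethanol (0 h) or given the synthetic glucocorticoid dexamethasone at 100 nM for 1, 2 or 3 h, and every dish received 200 µM 4-thiouridine for its last 1 h. Each combination of line and time had 2 libraries, which makes 12 groups and 24 libraries. The time that the control dishes spent in ethanol is not given in the sources used here, and a construct cannot be told apart from the pool that carries it. Nothing states that the libraries of a group came from separate cultures, so p-values measure the spread between libraries, which may be technical. The paper states that replicate pairs went through biotinylation and pulldown together. Variation between those rounds can then fall between groups and be missing from that spread.

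Library totals lay between 8106036 and 15820806 exon counts. NR3C1, the gene of GR itself, had a median of 633 CPM (read counts scaled to a common library total with TMM factors) in wt, 2187 in SoF and 2858 in Ctrl, and it fell by 3 h in each line. These counts can include RNA of the introduced GR construct. The paper chose sorted fractions so that nuclear GR protein matched between the lines, so this RNA is not a measure of receptor amount. The glucocorticoid target FKBP5 rose in all 3 lines by 3 h, by 3.11 on the log2 scale in wt, 3.68 in SoF and 2.39 in Ctrl. TSC22D3 rose by 2.04 and 2.33 in wt and SoF and had a log2 change of 0.10 in Ctrl. PER1, a further target, rose by similar amounts in the lines, by 1.21 in wt, 1.04 in SoF and 1.02 in Ctrl. Of 8 osteoblast lineage genes 4 had a median of at least 1 CPM (COL1A1, SPARC, RUNX2 and ALPL), while COL1A2, SP7, IBSP and BGLAP were below it, and of the 10 genes listed for blood, epithelium, endothelium and liver only EPCAM and CDH1, both epithelial, reached it, with a highest median of 4.50 CPM. In bulk RNA, fewer cells making a transcript and less of it per cell cannot be told apart.

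The 2 ethanol libraries of a line stood apart from each other. In all 3 lines replicate 2 at 0 h was higher than replicate 1 for ETNK1, CHKA, CEPT1 and SELENOI, and lower for ETNK2, CHKB, PCYT2 and PEMT. The gap was widest for ETNK1, at 1.05 on the log2 scale in SoF and 1.07 in Ctrl. A shared direction in all 3 lines was also seen for 56.1% of the 23390 genes that had counts in all 6 of these libraries, so the members were not alone in this. The mean 3 h response of each of the 8 tested members is therefore also given without the replicate 2 ethanol libraries.

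In ethanol all 9 members were expressed. Per kilobase of exon, over the 6 ethanol libraries, SELENOI stood at 10.99 CPM per kb ± 1.66 (SD, n = 6) and CHKA at 10.3 ± 1.37. CHKB followed at 6.71 ± 1.97, PCYT1A at 5.59 ± 0.603 and CEPT1 at 5.37 ± 1.64. ETNK1 at 3.84 ± 1.74, PEMT at 3.43 ± 0.527, ETNK2 at 2.94 ± 0.631 and PCYT2 at 2.90 ± 0.885 were lowest. Neighbours in this order lay within 1 SD of each other except at the step from CHKA to CHKB. All members except ETNK1 overlap annotated genes on the opposite strand, among them ANAPC11 and NPB for PCYT2, DRAM2 for CEPT1, SLC51A for PCYT1A, MAPK8IP2 for CHKB and ADGRF3 for SELENOI, and if the counting did not use strand, reads of these genes and of the members cannot be told apart. Raw counts ranged from 41 to 174 for PEMT, the most thinly counted member, and from 756 to 1419 for SELENOI.

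ETNK2, an ethanolamine kinase, was the member with the widest range, 6.41-fold between its lowest and highest library. In wt it stood at 16.7 and 14.2 CPM in ethanol, 15.9 and 15.5 at 1 h, 38.0 and 45.8 at 2 h, and 35.6 and 33.2 at 3 h. In SoF the same series ran from 14.96 and 10.3 through 15.8 and 14.9 to 49.3 and 39.4 at 2 h and 59.6 and 52.1 at 3 h. In Ctrl it began at 13.9 and 9.30, was 15.6 and 14.3 at 1 h, reached 23.1 and 24.3 at 2 h and returned to 16.8 and 16.9 at 3 h. Every library at 2 h and 3 h was above both ethanol libraries of its line, and at 3 h the libraries of the 3 lines did not overlap, with SoF highest and Ctrl lowest. ETNK2 was selected on the SoF and Ctrl libraries at 0 h and 3 h, so separations that use them are a description only. How many of all genes separate in this way was not counted, here or for the members below.

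**Figure D1:**
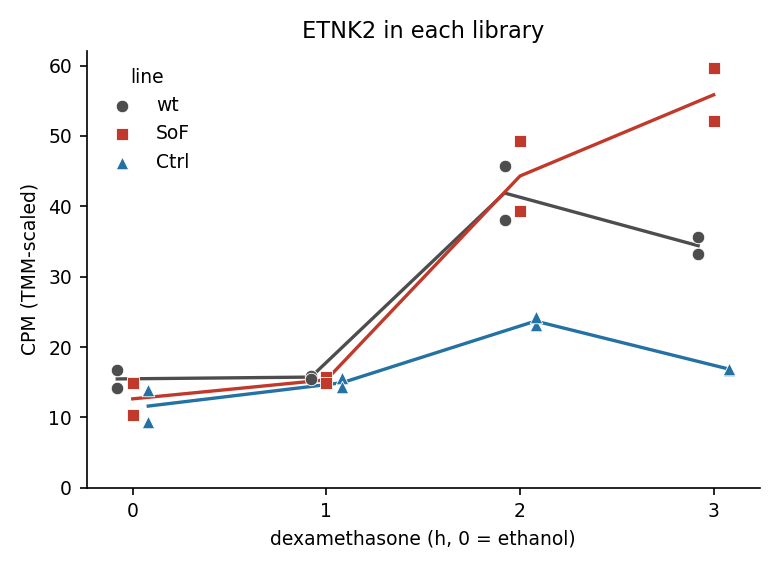
ETNK2 level (TMM-scaled CPM, vertical axis) against hours of dexamethasone, where 0 h is ethanol; each point is 1 library and the lines join the means of the 2 libraries of a group. The lines lie together at 0 h and 1 h, and by 3 h SoF reaches 59.6 and 52.1 CPM, wt 35.6 and 33.2, and Ctrl 16.8 and 16.9.

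The wt libraries, and those at 1 h and 2 h in every line, took no part in the choice of ETNK2 and could be tested. In wt ETNK2 was level at 1 h (log2 fold change 0.02, SE 0.19, adjusted p = 0.974) and then rose, by 1.43 at 2 h (SE 0.19, adjusted p = 8.73e-05) and by 1.15 at 3 h (SE 0.19, adjusted p = 0.000304). Between 1 h and 2 h it rose in each line, by 1.41 on the log2 scale in wt (adjusted p = 0.000179), by 1.53 in SoF (adjusted p = 2.73e-05) and by 0.67 in Ctrl (adjusted p = 0.0288). The wt and SoF calls held when any 1 of the 24 libraries was left out. The Ctrl step was no longer called without any 1 of its own 4 libraries, where it lay between 0.60 and 0.74.

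Whether the step itself differed between the mutants was tested on the same libraries. It was 0.86 larger in SoF than in Ctrl on the log2 scale (SE 0.27, unadjusted p = 0.00425), which after adjustment over all genes was not called (adjusted p = 1). As a description, the log2 change of ETNK2 at 3 h stood at 0.52 for Ctrl, 1.15 for wt and 2.13 for SoF. The SoF response exceeded that of Ctrl by 1.61 and that of wt by 0.98, and the Ctrl response was below that of wt, with a difference of -0.63. Leaving out 1 library at a time moved these differences to between 1.27 and 1.92, between 0.74 and 1.29, and between -0.89 and -0.28. The lowest size of the last came without replicate 1 of Ctrl at 0 h. With the 1 h libraries as the reference, the same 3 differences were 1.69, 0.73 and -0.95.

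The DNA around the start of ETNK2 was searched for the glucocorticoid response element, to set the letters beside its response. GR binds as a dimer to a pair of inverted arms, here written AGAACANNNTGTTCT, and each arm is also searched alone as AGAACA or TGTTCT. Promoters came from RefSeq (GRCh38.p14), as the 250 bases before and 50 bases after a gene start, and 8 of the 9 members, all but CHKA, had 12 entries, each equal to hg38. No entry of a member held the full element within 3 mismatches in its 12 fixed letters, which 10.8% of all 35116 promoters did. The ETNK2 promoter missed it by 6 letters and held no single arm. The 250 bases before the start are shown, first for ETNK2 at chr1:204152045-204152294 (minus strand), whose GC content was 83.2% against a median of 58% over all promoters.

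ETNK2: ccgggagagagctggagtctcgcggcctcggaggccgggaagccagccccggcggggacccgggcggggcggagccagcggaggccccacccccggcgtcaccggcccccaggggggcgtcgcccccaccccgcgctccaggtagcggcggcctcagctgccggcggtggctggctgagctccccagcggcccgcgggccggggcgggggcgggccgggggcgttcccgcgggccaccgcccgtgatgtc

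Among the other members, the single arm was found in 1 of the CEPT1 entries (chr1:111139599-111139848, plus strand), while 14.8% of all promoters held it. CEPT1 is shown with the arm in capitals, followed by PCYT2 (chr17:81911400-81911649, minus strand) and PEMT (chr17:17591709-17591958, minus strand), the members that rose in the most comparisons below and held no arm.

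CEPT1: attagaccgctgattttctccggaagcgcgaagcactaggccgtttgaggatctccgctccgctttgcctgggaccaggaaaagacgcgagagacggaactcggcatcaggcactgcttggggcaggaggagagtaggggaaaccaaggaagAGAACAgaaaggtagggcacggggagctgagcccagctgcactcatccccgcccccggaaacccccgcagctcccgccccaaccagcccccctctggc

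PCYT2: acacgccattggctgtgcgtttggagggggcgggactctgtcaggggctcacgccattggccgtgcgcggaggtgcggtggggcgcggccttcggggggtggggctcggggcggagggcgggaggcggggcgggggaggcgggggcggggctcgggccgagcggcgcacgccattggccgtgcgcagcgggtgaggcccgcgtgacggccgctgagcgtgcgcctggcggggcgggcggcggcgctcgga

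PEMT: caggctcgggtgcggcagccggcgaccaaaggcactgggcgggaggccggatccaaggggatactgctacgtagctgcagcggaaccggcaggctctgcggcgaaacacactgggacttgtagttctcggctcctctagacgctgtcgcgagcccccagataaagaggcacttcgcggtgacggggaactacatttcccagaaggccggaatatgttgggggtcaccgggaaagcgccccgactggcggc

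A wider search, added after the ETNK2 values had been seen, covered 10 kb to either side of the 5′ end of a gene and of its RefSeq starts. CHKA, with no RefSeq entry, was searched around its 5′ end alone. Allowing 1 mismatch, ETNK2 was the only member with a match, and 9.09% of 14680 tested protein-coding genes had a match too. The match lay in an intron of ETNK2 at chr1:204150354-204150368 (hg38), with its centre 1683 bases downstream of the start. It is printed on the strand of the gene with 30 bases on each side, and capitals mark letters equal to the element. Its difference from the element is A3G, counted from the 5′ end of the element.

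ETNK2 intron: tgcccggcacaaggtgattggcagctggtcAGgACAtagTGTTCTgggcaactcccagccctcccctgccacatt

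A match of letters is a description of the sequence and not a measured binding site. Of the 19 genes annotated within 250 kb of ETNK2, 6 were counted deeply enough to be tested. SOX13, a transcription factor gene on the opposite strand whose 3′ end faces that of ETNK2, rose over the 3 lines by 1.40 (SE 0.14, adjusted p = 1.1e-07) and was called in each of them, with 1.40 in wt, 1.68 in SoF and 1.13 in Ctrl. PLEKHA6 rose (0.77, SE 0.18, adjusted p = 0.00189) and PPP1R15B, a regulatory subunit of a protein phosphatase, fell by 0.37 (SE 0.08, adjusted p = 0.000952). KISS1 and GOLT1A were called as falling at 3 to 33 and 0 to 27 counts a library, and RPL21P19 was not called (-0.27, adjusted p = 0.239). The antisense genes within ETNK2, ENSG00000261065 and ERLNC1, had at most 10 and 2 counts in any library.

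Genes whose course was most like that of ETNK2 were ranked by Pearson correlation of log2 CPM over the 12 group means, which share libraries and scaling and include the libraries that chose ETNK2. TSPYL2 came first (r = 0.979), followed by AGFG2 (0.962), BCL2L1 (0.956), BEST2 (0.951) and TMEM43 (0.947). BEST2 averaged only 0.397 CPM. Of the members PCYT2 was closest, at rank 809 of 23650 (r = 0.793), and PEMT next (0.655). At the other end were ETNK1 (-0.637) and SELENOI (-0.704).

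Across the 3 lines the other members split into those that rose and those that fell. In the mean 3 h response PEMT, PCYT2, PCYT1A and CHKB rose and ETNK1 and CHKA fell, while CEPT1 and SELENOI were not called. That is 6 of 8 called, against 40.3% of all 23651 genes. The 4 rising members compare with 20.9% of all genes called as rising and the 2 falling members with 19.3% called as falling. The median log2 change was 0.04 for the 8 members and -0.03 for all genes.

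ETNK1, the other ethanolamine kinase, fell over the 3 lines by 0.71 (SE 0.16, adjusted p = 0.00142). In wt its libraries were at 32.8 and 39.9 CPM in ethanol, 47.8 and 49.3 at 1 h, 32.4 and 32.7 at 2 h, and 30.1 and 24.3 at 3 h. In SoF they were at 43.6 and 90.4 in ethanol, 61.6 and 90.0 at 1 h, 33.6 and 45.5 at 2 h, and 30.3 and 32.6 at 3 h. The 3 h libraries of each line were below both its ethanol libraries. In Ctrl it began at 32 and 67.2 CPM and was at 31.99 and 31.25 by 3 h, so that the lower ethanol library there all but met the 3 h level. The fall was called in SoF alone (-1.09, SE 0.28, adjusted p = 0.00942), where it was -0.47 (adjusted p = 0.37) without replicate 2 at 0 h and also lost its call without either library at 3 h, at -1.04 and -1.14. With the 1 h libraries as reference the mean fall was -0.90 (adjusted p = 0.000108), and without the replicate 2 ethanol libraries it was -0.25 (adjusted p = 0.128).

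CHKA and CHKB, the choline kinases, were called with opposite signs in the mean 3 h response, and neither of these mean calls held without the replicate 2 ethanol libraries. CHKA fell over the 3 lines by 0.37 (SE 0.09, adjusted p = 0.00287), and without those libraries it was at -0.24 (adjusted p = 0.0956). It stayed within 26.7 and 49.7 CPM in all libraries, a 1.86-fold range, and at 3 h was at 33.6 and 26.7 in wt, 35.5 and 29.1 in SoF and 31.6 and 27.9 in Ctrl. These were below both ethanol libraries in SoF and Ctrl, whereas in wt the groups overlapped. CHKB rose by 0.31 (SE 0.10, adjusted p = 0.0188) over the lines. Within a line it was called in Ctrl, where it went from 15.9 and 14.1 CPM to 24.3 and 26.0 (0.74, SE 0.18, adjusted p = 0.0075, and 0.65 or 0.69 without a call when replicate 2 at 0 h or at 3 h was left out). In SoF it went from 18.2 and 17.7 to 21.2 and 21.6, and in wt from 30.1 and 19.3 to 22.7 and 24.5, where the groups overlapped. The mean change of CHKB was 0.19 (adjusted p = 0.183) without the replicate 2 ethanol libraries, 0.22 (adjusted p = 0.0697) without that of wt alone and 0.31 (adjusted p = 0.0535) with no filter on low counts. CHKB shares its strand and exons with the readthrough gene CHKB-CPT1B, so reads can be divided between them and its values are uncertain.

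Both cytidylyl transferases rose. PCYT1A, which catalyses the step that limits the rate of phosphatidylcholine synthesis, changed by 0.39 in wt, 0.47 in SoF and 0.37 in Ctrl, and its mean rise of 0.41 (SE 0.08, adjusted p = 0.000154) was among the most even. It went from 41.7 and 46.9 CPM to 56.4 and 59.95 in wt, from 39.7 and 39.6 to 54.3 and 55.8 in SoF, and from 50.4 and 48.9 to 63.8 and 64.6 in Ctrl. In every line both 3 h libraries were above both ethanol libraries. A same-strand annotated transcript, ENSG00000272741, overlaps PCYT1A.

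PCYT2 acts at the same step for ethanolamine, and it rose by 0.71 over the lines (SE 0.15, adjusted p = 0.000781). In wt it was highest at 2 h, at 43.6 and 42.6 CPM, against 29.8 and 20.2 in ethanol, 19.7 and 26.3 at 1 h, and 37.1 and 28.9 at 3 h. In SoF it was at 23.0 and 14.3 in ethanol, 14.7 and 15.01 at 1 h, 34.4 and 21.5 at 2 h, and 39.3 and 27.7 at 3 h. In Ctrl it was at 18.9 and 13.2, then 13.2 and 19.7, then 25.5 and 27.7, and at 3 h 31.7 and 28.2. From 1 h to 2 h it rose in wt (0.91, adjusted p = 0.0251) and in SoF (0.92, adjusted p = 0.023), and in Ctrl the step was 0.70 (adjusted p = 0.102). The wt step lost its call without replicate 1 at 1 h (0.71) or without either library at 2 h (0.88 and 0.91), and the SoF step without either library at 1 h (0.91 and 0.94) or replicate 1 at 2 h (0.54).

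CEPT1 and SELENOI catalyse the last step, SELENOI with CDP-ethanolamine and CEPT1 with both activated head groups. Neither was called in the mean 3 h response, with values of -0.29 for CEPT1 and -0.22 for SELENOI (adjusted p = 0.106 for each). SELENOI kept between 66.2 and 110.1 CPM throughout, a 1.66-fold range. CEPT1 had its highest libraries in SoF, at 68.8 CPM in replicate 2 at 1 h and 66.0 in replicate 2 in ethanol, against 55.1 and 36.8 in the partner libraries. With 1 h as reference CEPT1 fell by 0.50 (adjusted p = 0.0046). Without the replicate 2 ethanol libraries the mean changes were 0.05 for CEPT1 (adjusted p = 0.797) and -0.07 for SELENOI (adjusted p = 0.726).

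PEMT, the methyltransferase of the side branch, had the largest mean rise among the 8 tested members, 0.97 (SE 0.14, adjusted p = 6.74e-06). Of these 8 it was also the only one called at 3 h in each line, at 0.85 in wt, 1.09 in SoF and 0.96 in Ctrl. It went from 6.27 and 5.92 CPM to 9.84 and 12.2 in wt, from 6.56 and 4.81 to 10.8 and 13.7 in SoF, and from 7.00 and 4.83 to 11.03 and 12.4 in Ctrl. In each line all libraries at 2 h and 3 h were above both ethanol libraries. The call within a line was lost in wt without either ethanol library (0.88 and 0.83) or the second 3 h library (0.69), in SoF without ethanol replicate 2 (0.90), and in Ctrl without replicate 2 of either time (0.74 in ethanol, 0.88 for 3 h). The mean rise was 0.82 (adjusted p = 0.000371) without the replicate 2 ethanol libraries and 1.07 (adjusted p = 1.67e-06) against 1 h.

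**Figure D2:**
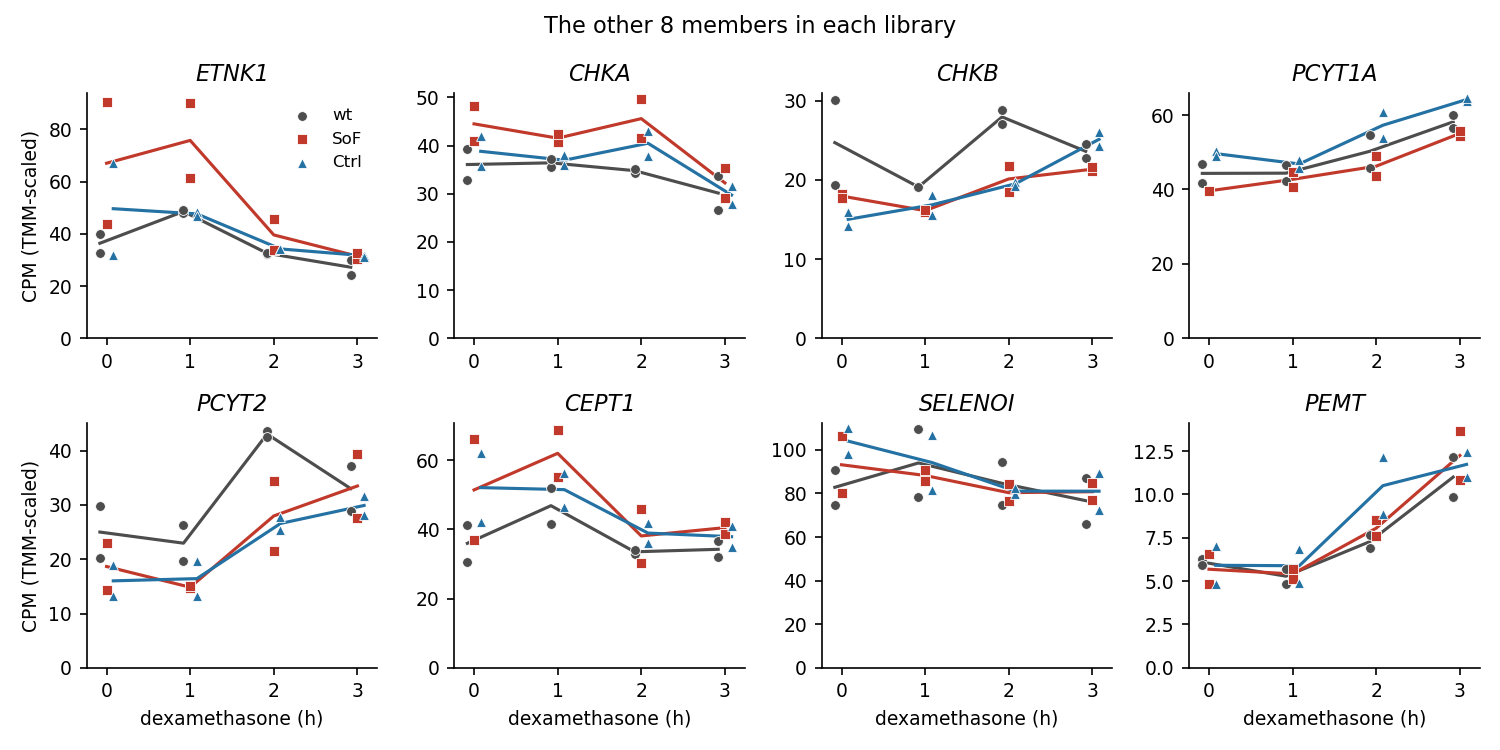
TMM-scaled CPM (vertical axes) of the 8 members other than ETNK2 against hours of dexamethasone, where 0 h is ethanol; points are libraries and lines join group means. PEMT and PCYT1A are higher at 3 h than in ethanol in all 3 lines, ETNK1 falls from widely spaced ethanol libraries (43.6 and 90.4 CPM in SoF), and SELENOI stays between 66.2 and 110.1 CPM.

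Fewer genes of any kind were called at 1 h and 2 h than at 3 h in each line. At 1 h edgeR called 0 of 9 members in wt (background 0.156% of all genes), 0 of 8 in SoF (0.165%) and 0 of 8 in Ctrl (0.0465%). DESeq2 called 0 in each as well, and an unadjusted p under 0.05 was reached by 1, 0 and 0 members. At 2 h ETNK2 alone was called in wt (1 of 9, background 4.6%) and PEMT alone in Ctrl (0.79, SE 0.24, adjusted p = 0.0424, 1 of 8, background 7.95%). PEMT in Ctrl was called in only 8 of the 24 fits that left out a library, with values between 0.56 and 1.11. In SoF 0 of 8 were called at 2 h (background 5.68%), by DESeq2 also 0, and 2 had an unadjusted p under 0.05. The 1 h, 2 h and 3 h responses of a line share its ethanol libraries.

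From 1 h to 2 h, a comparison free of the ethanol libraries, 3 of 9 members were called in wt (ETNK2, CHKB and PCYT2, background 13.5%), 4 of 9 in SoF (ETNK2 and PCYT2 rising, ETNK1 and CEPT1 falling, background 18.3%) and 2 of 9 in Ctrl (ETNK2 and PEMT, background 10.6%). The step of CHKB in wt was 0.55 (adjusted p = 0.0384), that of ETNK1 in SoF -0.94 (adjusted p = 0.0241), that of CEPT1 in SoF -0.70 (adjusted p = 0.0453) and that of PEMT in Ctrl 0.82 (adjusted p = 0.0307). In wt and Ctrl, dropping any 1 of the libraries compared lost at least 1 call. In SoF calls were lost without either library at 1 h or the first at 2 h. Of the fits without 1 library, the share of all genes called was lowest without the second 2 h library in wt and Ctrl. In SoF it was lowest without the first 2 h library, so these losses were not particular to the members. The CHKB step in wt was called in 15 and the CEPT1 step in SoF in 7 of the 24 fits that left out a library. ETNK2 was the only member called in all 3 lines at this step.

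At 3 h against ethanol, 2 of 9 members were called in wt (ETNK2 and PEMT, background 10.7%), 5 of 8 in SoF (PCYT1A, PCYT2 and PEMT rising, ETNK1 and CHKA falling, background 19.3%) and 3 of 8 in Ctrl (CHKB, PCYT2 and PEMT, all rising, background 14.2%). In SoF the 5 called values were 0.47 for PCYT1A, 0.83 for PCYT2, 1.09 for PEMT, -1.09 for ETNK1 and -0.46 for CHKA, and the Ctrl value for PCYT2 was 0.89. CHKA in SoF was called in only 7 of the 24 fits that left out a library, with values between -0.62 and -0.33. In SoF every member lost its call without ethanol replicate 2, and some did without either 3 h library. In Ctrl every member lost its call without replicate 2 of either time. In wt PEMT lost its call without any of the 4 libraries compared except the first at 3 h. Of the fits without 1 library, the share of all genes called was lowest without ethanol replicate 2 in SoF and Ctrl. In wt it was lowest without the second 3 h library, so these losses were not particular to the members. Without the 3 replicate 2 ethanol libraries together, PCYT1A, PCYT2 and PEMT were still called in the mean response, by 0.44, 0.46 and 0.82, and all genes called fell from 40.3% to 27.7%.

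**Figure D3:**
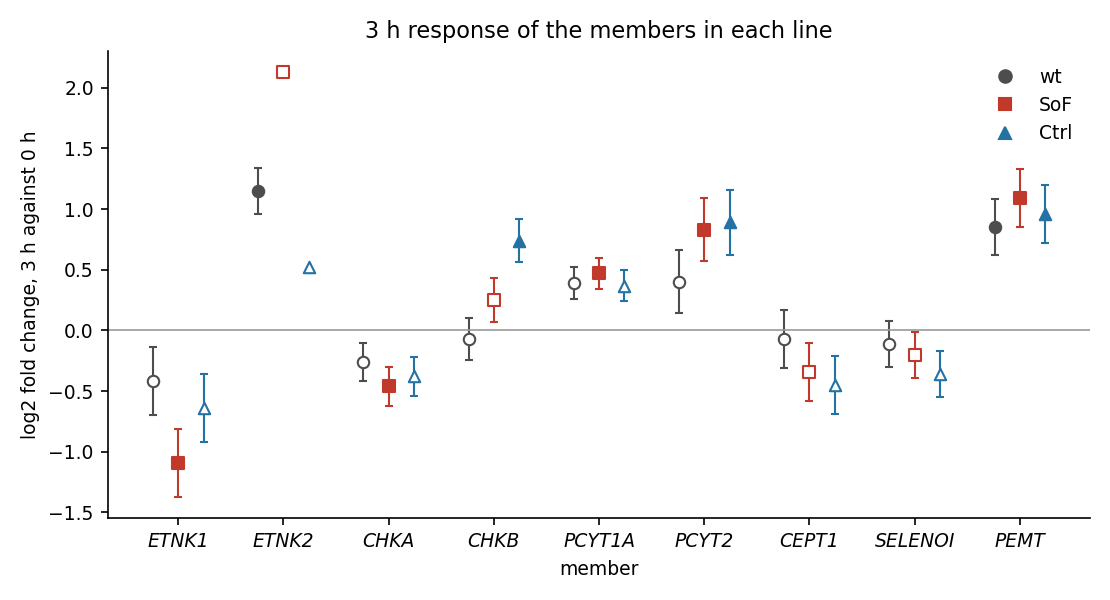
log2 fold change at 3 h against 0 h (vertical axis) for each member in wt, SoF and Ctrl; bars are standard errors, filled symbols are called at an adjusted p under 0.05, and ETNK2 in SoF and Ctrl is shown without error or call because it was selected on those libraries. ETNK2 spreads from 0.52 in Ctrl to 2.13 in SoF, whereas PEMT lies between 0.85 and 1.09.

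The responses of the other 8 members were then compared between lines. No difference was called by edgeR or DESeq2, with 0 of 8 for SoF against Ctrl (background 0.0127%, the contrast on which ETNK2 was selected), 0 of 8 for SoF against wt (background 0%) and 0 of 8 for Ctrl against wt (background 0%). An unadjusted p under 0.05 was reached by 0, 0 and 1 of them, the last being CHKB (0.80, SE 0.25, unadjusted p = 0.00341, adjusted p = 0.982). PEMT differed between SoF and Ctrl by 0.13 (SE 0.33), PCYT2 by -0.05 (SE 0.37), PCYT1A by 0.10 (SE 0.18) and ETNK1 by -0.45 (SE 0.40). These errors leave room for differences of moderate size, so alike responses are not shown. For the step from 1 h to 2 h, SoF against Ctrl, 0 of 9 were called by either tool (background 0%), and ETNK2 was the only member with an unadjusted p under 0.05.

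Levels were also compared between lines over all times, 8 libraries each, with time ignored as in the methods of the study. Of 8 members 0 were called for SoF against wt (background 8.02%), 0 for Ctrl against wt (background 4.77%) and 0 for SoF against Ctrl (background 3.61%), and DESeq2 called 0 in each. An unadjusted p under 0.05 was reached by 4, 2 and 1 of them. The spread in this fit holds the time effect, and with time as a term 5, 2 and 1 members were called. ETNK1, CHKA and CEPT1 were then higher in SoF than in wt, by 0.52, 0.25 and 0.34, and CHKB and PCYT2 lower, with -0.33 and -0.40, while 29% of all genes were called. CHKB and PCYT2 were lower in Ctrl than in wt as well (-0.32 and -0.49, with 18.8% of all genes called), and PCYT1A was lower in SoF than in Ctrl (-0.24, with 13.3% called). NR3C1 RNA also differed between these lines, as given above, and its part in these levels was not tested.

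The balance between paired enzymes can be read within a library as a ratio of CPM per kilobase, which needs no scaling between libraries. For the ethanolamine kinases ETNK2 over ETNK1 was 1.28 ± 0.318 (SD, n = 2) in wt in ethanol, 0.956 ± 0.0381 at 1 h and 3.76 ± 0.379 at 3 h. In SoF it went from 0.674 ± 0.477 to 5.26 ± 0.769 at 3 h, and in Ctrl from 0.845 ± 0.619 to 1.57 ± 0.0346. Both 3 h libraries were above both ethanol libraries in every line. For SoF and Ctrl this is a description only, since ETNK2 was selected on those libraries. CHKB over CHKA went from 0.53 ± 0.104 to 1.15 ± 0.156 in Ctrl and from 0.55 ± 0.073 to 0.906 ± 0.14 in SoF, and in wt the libraries at 3 h, 0.915 and 1.24, overlapped those in ethanol, 1.24 and 0.665. PCYT2 over PCYT1A overlapped between 0 h and 3 h in wt and SoF, and SELENOI over CEPT1 stayed between 1.35 and 2.83 in all libraries.

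**Figure D4:**
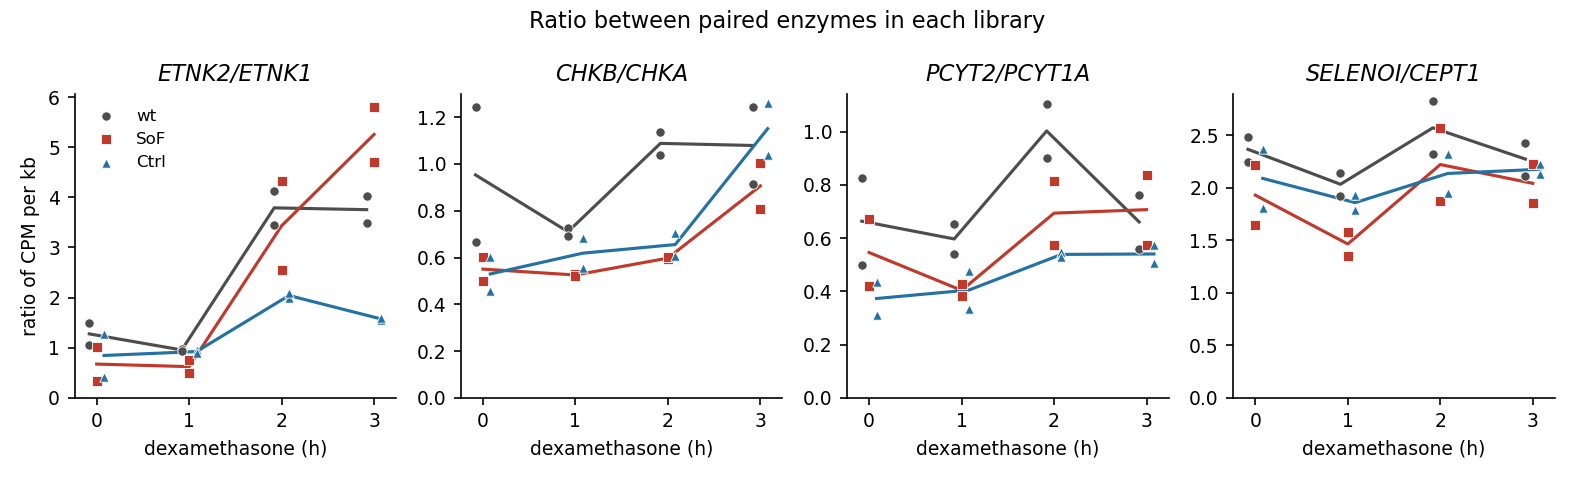
Ratio of CPM per kilobase of exon (vertical axes, linear) between paired enzymes of the same step, against hours of dexamethasone; points are libraries and lines join group means. ETNK2 over ETNK1 rises from 1 h to 2 h in each line and stands at 5.26 in SoF, 3.76 in wt and 1.57 in Ctrl at 3 h. In Ctrl its mean is higher at 2 h, at 2.04. ETNK2 was selected on SoF and Ctrl at 0 h and 3 h, so those values are a description only. SELENOI over CEPT1 stays between 1.35 and 2.83.

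Around the 9 members, 68 genes in 8 lists described the rest of the pathway and its supply, of which 61 were tested. In the mean 3 h response 24 of them rose and 13 fell, 60.7% in all against 40.3% of all genes, and their median was 0.18 against -0.03. Without the replicate 2 ethanol libraries fewer of them were called, and so were fewer of all genes. Differences between the lists were not tested.

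The phosphatidylserine route makes phosphatidylethanolamine by another way. Both of its synthases rose, PTDSS1 by 0.98 (SE 0.08, adjusted p = 3.1e-09) and PTDSS2 by 0.89 (SE 0.15, adjusted p = 8.59e-05), and the decarboxylase PISD was at 0.01 (adjusted p = 0.933). PTDSS1 went from 36.6 ± 2.92 CPM in ethanol to 72.4 ± 4.83 at 3 h (SD, n = 6 each) and was called in each line. Of the other Kennedy pathway genes, PCYT1B, a second cytidylyl transferase for choline, fell by 1.38 (SE 0.27, adjusted p = 0.000359) from 1.96 ± 0.514 to 0.738 ± 0.221 CPM, so it fell as PCYT1A rose. CHPT1, a choline phosphotransferase, was at 0.17 (adjusted p = 0.266).

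Among 6 tested carriers of choline and ethanolamine 3 fell, against 19.3% of all genes, and 0 rose. SLC44A5 fell by 1.01 (adjusted p = 0.000211), SLC44A3 by 0.84 (adjusted p = 0.000266) and SLC44A1, a plasma membrane choline carrier, by 0.28 with an adjusted p that rounds to the threshold (0.05). Of 11 tested genes for the release and breakdown of head groups 4 rose and 4 fell, where 20.9% of all genes rose and 19.3% fell. GDPD1 fell by 1.31 (adjusted p = 6.98e-05), GPCPD1, which splits glycerophosphocholine, by 0.88 (adjusted p = 5.09e-05) and GDPD5 by 0.33 (adjusted p = 0.0105), while CHDH, which oxidises choline, rose by 0.66 (adjusted p = 0.0179), PLD2 by 0.44 (adjusted p = 0.0243) and GDPD3 by 0.65 (adjusted p = 0.0302).

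In the list for diacylglycerol and phosphatidate supply 11 of 20 tested genes rose and 1 fell, where 20.9% of all genes rose and 19.3% fell. The rising genes included the diacylglycerol kinases DGKA, DGKD, DGKH, DGKQ and DGKZ, which use diacylglycerol rather than supply it. LPIN1, LPIN2 and LPIN3, which make it, were not called (-0.02, 0.04 and 0.30), so the count does not show a rise in diacylglycerol supply. AGPAT2, an acyltransferase that makes phosphatidate, rose by 0.97 (adjusted p = 1.35e-05) and was called in each line, DGKH, a diacylglycerol kinase, by 0.68 (adjusted p = 0.000187), and GPAM, a mitochondrial glycerol phosphate acyltransferase, by 0.50 (adjusted p = 0.000312). PLPP3 fell by 0.35 (adjusted p = 0.016). In the CDP-diacylglycerol branch 2 of 6 rose and 1 fell. CDIPT, the phosphatidylinositol synthase, rose by 1.17 (adjusted p = 1.28e-06), CDS2 rose by 0.27 (adjusted p = 0.0461) and PGS1 fell by 0.24 (adjusted p = 0.0152).

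Of 8 tested remodelling genes 3 rose and 2 fell, where 20.9% of all genes rose and 19.3% fell. LPCAT4, a lysophospholipid acyltransferase, rose most of all listed genes, by 1.58 (SE 0.14, adjusted p = 7.8e-09), from 12.2 ± 2.73 CPM to 36.6 ± 3.51 (SD, n = 6 each). MBOAT2 rose by 0.37 (adjusted p = 0.00126) and LPCAT1 by 0.40 (adjusted p = 0.00633), whereas PLA2G6, a phospholipase, fell by 0.44 (adjusted p = 0.0034) and MBOAT1 by 0.35 (adjusted p = 0.0382). In the list around the methyl donor used by PEMT, 2 of 5 tested genes rose and 1 fell, against 20.9% and 19.3% of all genes. Of the called genes only MAT2A makes the donor, and AHCYL1 and AHCYL2, listed as relatives of AHCY, do not. MAT2A, which makes S-adenosylmethionine, rose by 0.32 (adjusted p = 0.0158), AHCYL1 rose by 0.26 (adjusted p = 0.00831) and AHCYL2 fell by 0.60 (adjusted p = 0.000287).

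**Figure D5:**
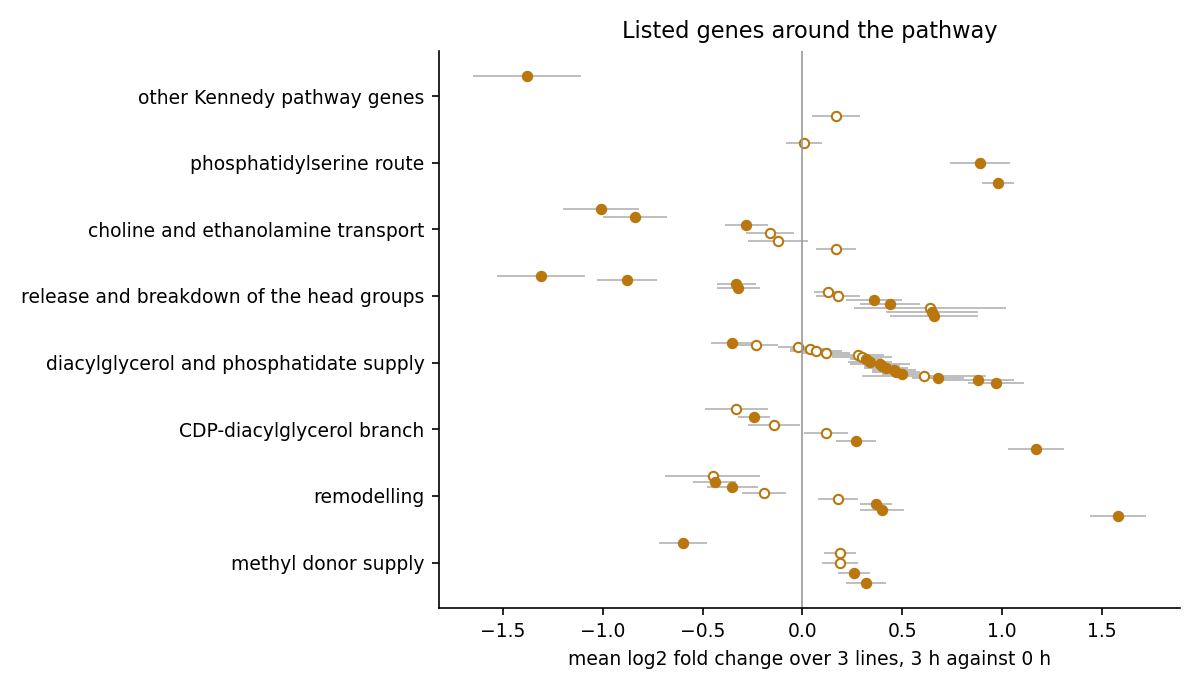
Mean log2 fold change over the 3 lines at 3 h against 0 h (horizontal axis) for the 61 tested genes of 8 lists around the pathway (vertical axis); bars are standard errors and filled points are called at an adjusted p under 0.05. Diacylglycerol and phosphatidate supply lies mostly to the right of 0, choline and ethanolamine transport mostly to the left, and the points range from -1.38 for PCYT1B to 1.58 for LPCAT4.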

How the data were processed

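4sU-seq libraries were analysed for 3 U2OS lines at 4 times, 2 libraries in each of 12 groups. Per the labels and methods, the authors tagged molecular identifiers (UMI-tools 1.1.2), trimmed reads (Trim Galore 0.6.6), aligned them to hg38 (STAR 2.7.3a), removed duplicates and counted reads over exons (featureCounts, GENCODE 39). The deposited values are whole-number counts per gene, with no normalization. Strand-specific counting is named in the table's title and nowhere else. Symbols, positions and merged exon lengths came from GENCODE 44, which matched 61369 of 61533 genes (99.7%).

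Counts were tested in edgeR 4.0.16 (R 4.3.3) with TMM scaling, filterByExpr (minimum count 10, minimum total 15), quasi-likelihood F tests and p-values adjusted by Benjamini-Hochberg over all tested genes, with a threshold of 0.05. A fit over the 12 groups (23651 genes, biological coefficient of variation 14.2%) gave responses, steps and their differences, and a fit on line alone (21122 genes, 24%) gave levels. Standard errors are the size of the log2 change over the root of F. Log2 CPM used a prior count of 2. The procedure was tested on simulated data. Counts cover deduplicated molecules, totals are 8106036 to 15820806, and counting error adds to the spread between libraries for genes with few counts, such as PEMT (41 to 174).

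The members and lists were chosen with earlier results of these data known. All members were named, and of each list up to 3 rising and 3 falling genes with the smallest p, and PISD and CHPT1 were added after their values were seen. Alternatives were DESeq2 1.42.0, its size factors, no filter, single lines, a replicate block, a time term, 1 h as reference, and libraries left out. Proteins were not analysed here.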

Additional observations from a re-analysis of the deposited data

Results flagged for a closer look

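The 3 h response of ETNK2 was 1.61 higher in SoF than in Ctrl on the log2 scale, a difference between groups under the same contrast. It is the value on which ETNK2 was selected and is given as a description, with no test. The step from 1 h to 2 h, in libraries that took no part in the choice, differed by 0.86 (adjusted p = 1) and was not called. With 2 libraries a group, single libraries were not screened as outliers.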

How the results depend on the processing

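Every called value of a member kept its direction under every alternative run, and CEPT1, not called in the mean response, turned from -0.29 to 0.05 without the replicate 2 ethanol libraries. Without the filter, calls were lost for CHKA and PCYT1A in SoF at 3 h (-0.44 and 0.49), PEMT in Ctrl at 2 h (0.77), CHKB in the mean response (0.31) and CHKB in the wt step (0.54), and CEPT1 in the SoF step lost its call with DESeq2's size factors (-0.70). Counts of called members moved by more than 1.5 times in these cases. Without the replicate 2 ethanol libraries (chosen after seeing the data) they were 1 in wt at 1 h, 1 in wt at 3 h, 1 in SoF at 3 h, 0 in Ctrl at 2 h, 1 in Ctrl at 3 h and 3 in the mean response (3.3%, 8.67%, 9.45%, 2.32%, 5.52% and 27.7% of all genes), and without the replicate 1 ethanol libraries 2 in wt at 2 h, 3 in SoF at 2 h, 4 in Ctrl at 2 h and 5 in Ctrl at 3 h, where 8.78%, 13.9%, 18.3% and 22.6% of all genes were called. With no filter on low counts they were 2 in wt at 2 h, 1 in SoF at 2 h and 3 in SoF at 3 h, with 3.5%, 3.86% and 9.72% of all genes called. With each line fitted alone the count was 0 in Ctrl at 2 h (8.21% of all genes). With 1 h as reference it was 4 in wt at 3 h (16% of all genes). With time as a term, or in the 12-group fit averaged over times (added after seeing the data), 5 members were called for SoF against wt, 2 for Ctrl against wt and 1 for SoF against Ctrl. Of all genes 29%, 18.8% and 13.3% were called with the time term, and 22.1%, 13.2% and 8.96% in the averaged fit. The cause was not tested.

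Leaving out 1 library at a time moved the count of called members in wt at 3 h, in SoF and Ctrl at 2 h and 3 h, in the mean response and in each step. The share of all genes called moved in these comparisons as well. For SoF against wt in level the count was 0 to 1, where 4.42% to 12.2% of all genes were called. Replicate numbers did not pair the libraries in general. Over 66 pairs of groups the correlation of deviations had a median of 0.04 (-0.22 to 0.57) and passed 0.1 in 21, while among ethanol groups it was 0.39 to 0.57. It was not confined to ethanol. SoF at 0 h correlated at 0.37 with SoF at 1 h and at 0.43 with SoF at 2 h, against 0.04 with SoF at 3 h. With a replicate block 2 members were called in wt at 2 h (6.06% of all genes) and 6 in the mean response (42.1%). Over all genes, DESeq2 called 12 response differences between SoF and Ctrl at 3 h and the unfiltered fit 52, against 3 here.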
